A study of Mus musculus with 12 samples.

Results

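The 10 genes described here code for the signalling core of the T cell receptor of CD8+ T cells. They are the CD3 chains (Cd3d, Cd3e, Cd3g and Cd247), the co-receptor (Cd8a and Cd8b1), the proximal kinases (Lck and Zap70) and the adaptors on which signals assemble (Lat and Lcp2). They were taken by symbol from the 14323 genes of the count table, and all 10 were found there. The rule that names them is by function and uses no measured value, but it was set with earlier results of these data known. RNA was sequenced from naïve CD8+ T cells that had been sorted as TCRβ+CD8+CD62L+CD44- from the spleens of 3 wild type mice. Cells of each mouse were cultured for 6 h at 100000 cells per well in 4 conditions, which gave 12 libraries. Wells were coated with 2.5 µg/ml anti-CD3ε or, in the unstimulated conditions, with isotype control in its place, and each was combined with 2.5 µg/ml of the agonistic antibody 2C7 against LAIR-1 or its isotype control. LAIR-1 is an inhibitory receptor for collagens. Each condition is named by its coatings, from unstimulated isotype to anti-CD3 anti-LAIR-1, and has 3 libraries. The mice are described as wild type, thus without an engineered allele, and all wells held an immobilized antibody. The anti-CD3ε antibody binds the protein made from Cd3e. The sort before culture used surface CD8, a product of this gene group, and TCRβ, which is not made from any of the 10 genes. There was no co-stimulating antibody among the coatings named, which limits the culture as a model of priming.

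The T cell receptor has no enzyme of its own. When it is engaged, Lck, which is held at the inner membrane and bound by CD8, phosphorylates the tyrosine motifs of the CD3 chains, of which the zeta chain made from Cd247 carries the most. Zap70 docks on these motifs and phosphorylates the adaptors LAT and SLP-76, the latter made from Lcp2, and this platform recruits the enzymes that raise calcium and activate Ras. Engaged receptors are taken up and degraded, and T cells adjust their receptor RNA and protein after activation.

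The genes lie at 7 places of the mouse genome (GRCm38, the assembly also called mm10, with GENCODE M21 gene models), and all are protein coding. Cd3g (chr9:44969572-44980431, minus strand), Cd3d (chr9:44981786-44987339, plus strand) and Cd3e (chr9:44998740-45009627, minus strand) stand next to each other. The starts of Cd3d and Cd3g face away from each other and are 1355 bases apart. Cd8b1 (chr6:71322788-71337494) and Cd8a (chr6:71373427-71379173) are also neighbours, both on the plus strand, with starts 50639 bases apart. The other 5 genes stand apart, namely Cd247 (chr1:165788681-165877277, plus strand), Zap70 (chr1:36761798-36782818, plus strand), Lck (chr4:129548344-129573641, minus strand), Lat (chr7:126363824-126369570, minus strand) and Lcp2 (chr11:34046920-34092295, plus strand).

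The 250 bases before the start were found in the RefSeq promoters of GRCm38.p6 for 9 of the 10 genes, all but Cd8b1. Shown are 5 of them. Cd3d and Cd3g are a divergent pair whose RNA fell with anti-CD3, Cd247 had the largest fall of the 10 genes, and Zap70 and Lcp2 had the largest rises. Capitals mark, on either strand, letters used by factors known in T cells. These are RUNX (TGTGGT), ETS (GGAAGT), E-box (CANNTG), AP-1 (TGANTCA) and TCF/LEF (CTTTGA). No matches overlapped in these windows. Among all 32851 RefSeq windows of this length, 14.0% held the RUNX letters, 19.7% ETS, 66.2% E-box, 6.75% AP-1 and 13.8% TCF/LEF. Each sequence is written 5′ to 3′ on the strand of its gene.
Cd3d (chr9:44981536-44981785, plus strand): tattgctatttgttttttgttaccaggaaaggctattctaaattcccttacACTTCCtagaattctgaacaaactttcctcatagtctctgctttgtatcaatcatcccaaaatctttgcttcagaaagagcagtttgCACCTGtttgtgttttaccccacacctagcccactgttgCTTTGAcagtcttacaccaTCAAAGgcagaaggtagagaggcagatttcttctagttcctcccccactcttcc
Cd3g (chr9:44980432-44980681, minus strand): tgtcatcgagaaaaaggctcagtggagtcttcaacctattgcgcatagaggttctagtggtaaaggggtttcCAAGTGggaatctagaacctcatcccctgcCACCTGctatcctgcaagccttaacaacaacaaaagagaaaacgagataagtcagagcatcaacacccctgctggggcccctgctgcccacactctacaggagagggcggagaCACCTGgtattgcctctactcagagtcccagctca
Cd247 (chr1:165788431-165788680, plus strand): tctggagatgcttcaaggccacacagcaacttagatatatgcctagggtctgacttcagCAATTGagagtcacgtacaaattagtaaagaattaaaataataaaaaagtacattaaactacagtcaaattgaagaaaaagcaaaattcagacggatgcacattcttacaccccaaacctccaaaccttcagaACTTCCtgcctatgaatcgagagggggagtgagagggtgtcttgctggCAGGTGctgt
Zap70 (chr1:36761548-36761797, plus strand): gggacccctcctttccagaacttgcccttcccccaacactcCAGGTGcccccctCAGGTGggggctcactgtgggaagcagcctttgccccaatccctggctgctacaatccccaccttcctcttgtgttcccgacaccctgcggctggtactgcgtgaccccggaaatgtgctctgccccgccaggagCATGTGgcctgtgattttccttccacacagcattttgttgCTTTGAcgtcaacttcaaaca
Lcp2 (chr11:34046678-34046927, plus strand): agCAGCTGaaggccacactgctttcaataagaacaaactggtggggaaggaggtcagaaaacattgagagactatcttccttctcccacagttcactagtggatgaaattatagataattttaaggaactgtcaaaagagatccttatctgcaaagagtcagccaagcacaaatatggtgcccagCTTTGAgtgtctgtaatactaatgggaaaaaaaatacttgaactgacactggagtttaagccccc
The Cd3d window held 1 ETS, 1 E-box and 2 TCF/LEF matches, and the Cd3g window held 3 E-box matches and none of the others. The Cd247 window held 1 ETS and 2 E-box matches. Zap70 had 3 E-box matches and 1 TCF/LEF match, and Lcp2 had 1 of each. E-box letters thus stood in all 5 windows. Among these windows, TCF/LEF letters stood both in a gene that fell (Cd3d) and in those that rose (Zap70 and Lcp2). Of the windows not shown, that of Lat, which also rose, held no TCF/LEF letters, nor did those of Cd3e, Cd8a and Lck. A match is a description of the sequence and not a bound site.

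Each gene was measured well above the limit of detection. Read counts of the 10 genes ranged from 122 to 5935 per library, where 3 counts correspond to between 0.388 and 1.68 CPM (read counts normalized to the library total, with the same scale in all libraries). Library totals had medians of 2304214 counts in unstimulated isotype, 3548881 in unstimulated anti-LAIR-1, 4883760 in anti-CD3 isotype and 6204054 in anti-CD3 anti-LAIR-1, so depth moved with the conditions. Cells held RNA of CD8 T cells and little of others. In summed CPM, the 4 CD4 T cell markers reached at most 11.0 and the 4 B cell markers found at most 9.46, with the highest values of both without anti-CD3. The 5 myeloid markers found of 6 summed to 28.9 to 63.7 CPM, nearly all from Cst3, with Csf1r and Cd14 at 0 in 11 libraries each. The part of the markers of other cells in the differences below was not tested. The 8 genes of early activation fixed as a check of stimulation, Cd69 and Egr1 among them, rose with anti-CD3 in 8 of 8 cases with isotype and in 8 of 8 with anti-LAIR-1. Of all genes tested, 35.3% and 36.4% rose. Between the stimulated conditions, Il2ra was called lower with anti-LAIR-1 than with isotype and the other 7 did not pass, where 1.86% of all genes tested were lower. Lair1 itself had 0 to 7 counts per library, too few to compare.

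Levels below are CPM after TMM scaling over the 12 libraries, given for mouse 1, mouse 2 and mouse 3 in turn and then as mean ± SD (n = 3). They are shares of each library's RNA and not amounts per cell, and all rises and falls given here are of these shares. A change of RNA per cell and a change in the number of cells contributing cannot be told apart. The reads come from transcript 3′ ends and levels are compared within a gene only. Fold changes are log2 values ± their standard error from edgeR's quasi-likelihood test, and p-values were adjusted by Benjamini-Hochberg over all genes tested in that comparison, with 0.05 as threshold.

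Anti-CD3 lowered the RNA of the CD3 chains, Cd8b1 and Lck and raised that of Zap70 and Lcp2, while the calls of Cd8a in both comparisons, of Lat with isotype and of Cd3e with anti-LAIR-1 depended on the setting. With isotype, 7 of the 10 genes fell, where 36.1% of the 8690 genes tested fell, and 3 of 10 rose, a share close to the 35.3% of all genes. The median over the 10 genes was -0.69, against -0.03 over all genes tested. With anti-LAIR-1 present, 6 of 10 fell (36.3% of the 9000 genes tested), 3 of 10 rose (36.4%) and 1 did not pass the threshold, and the medians were -0.28 and -0.04. These percentages leave the counts in either direction no more than a description of the 10 genes. The conditions differ by gene, as follows.

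**Figure D1:**
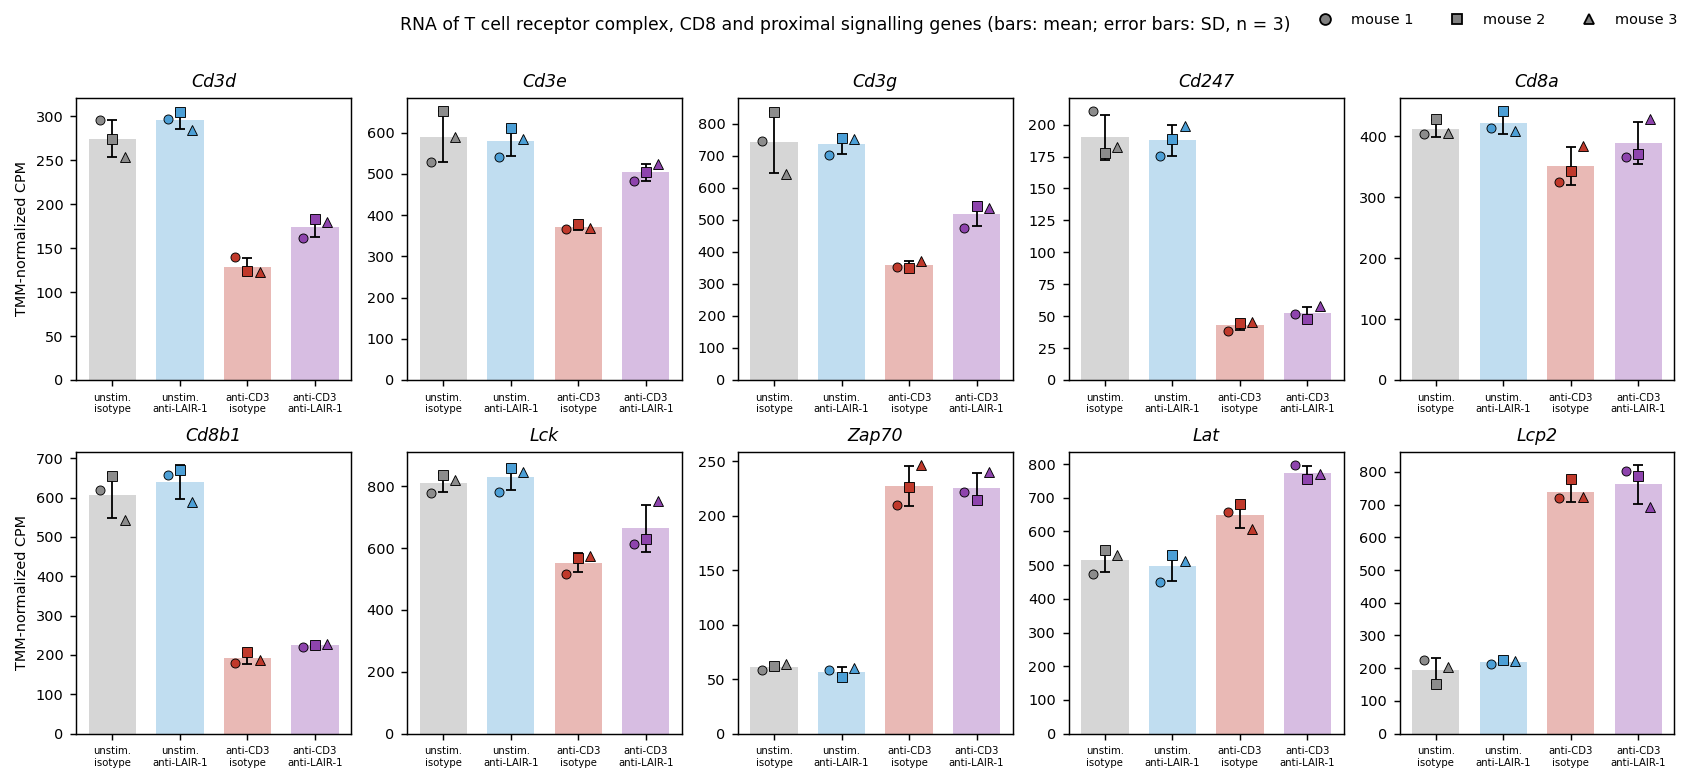
TMM-normalized CPM of the 10 genes in the 12 libraries, with 1 panel per gene, the mean as a bar, the SD over 3 mice as error bar and each mouse as a point. Cd247 falls from 178 to 210.4 CPM in unstimulated isotype to 38.7 to 45.5 CPM in anti-CD3 isotype, Zap70 and Lcp2 rise with anti-CD3, and Cd8a stays within a narrow range.

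Of the CD3 chains, Cd247 had the largest change. It codes for the zeta chain, the main signalling tail of the receptor. Its level was 210.4, 178 and 182 CPM in unstimulated isotype (190.1 ± 17.7) and 175, 189 and 199 CPM in unstimulated anti-LAIR-1 (188 ± 12.1). With anti-CD3 it was 38.7, 44.8 and 45.5 CPM with isotype (43.0 ± 3.73) and 51.5, 48.0 and 57.9 CPM with anti-LAIR-1 (52.5 ± 5.07). The unstimulated groups overlapped and both lay far above the stimulated groups, which did not overlap each other. The change with anti-CD3 was -2.21 ± 0.12 with isotype (adjusted p = 4.75e-14), a level 4.63-fold lower, and -1.86 ± 0.10 with anti-LAIR-1 (adjusted p = 2.45e-12), 3.63-fold lower. The 3′ part of Pou2f1, on the other strand, overlaps the Cd247 gene, and whether counting used strand is not stated. Pou2f1, a transcription factor gene, changed by -0.48 (adjusted p = 0.00510) and -0.31 (adjusted p = 0.0363) in the same comparisons, less than Cd247.

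Cd3d and Cd3g, the divergent pair printed above, code for the delta and gamma chains that each pair with epsilon. Cd3d was 296, 275 and 253 CPM in unstimulated isotype (275 ± 21.3), 297, 305 and 285 CPM in unstimulated anti-LAIR-1 (296 ± 10.1), 140.4, 124 and 123 CPM in anti-CD3 isotype (129 ± 9.88) and 162, 183 and 179 CPM in anti-CD3 anti-LAIR-1 (175 ± 11.4). Cd3g was 746, 836 and 643 CPM in unstimulated isotype (742 ± 96.5), 701, 754 and 751 CPM in unstimulated anti-LAIR-1 (735 ± 29.5), 353, 349 and 372 CPM in anti-CD3 isotype (358 ± 12.2) and 475, 544 and 536 CPM in anti-CD3 anti-LAIR-1 (518 ± 37.8). For both genes the order was the unstimulated groups, which overlapped, then anti-CD3 anti-LAIR-1, then anti-CD3 isotype, with no overlap between these steps. With isotype, anti-CD3 changed Cd3d by -1.17 ± 0.10 (adjusted p = 2.72e-10) and Cd3g by -1.13 ± 0.10 (adjusted p = 2.80e-10), that is 2.25-fold and 2.19-fold lower. With anti-LAIR-1 the changes were -0.78 ± 0.08 (adjusted p = 4.29e-08) for Cd3d and -0.52 ± 0.07 (adjusted p = 2.59e-06) for Cd3g. The ratio of Cd3g to Cd3d counts within a library lay between 2.36 and 3.04, and was 2.70 ± 0.298 in unstimulated isotype, 2.49 ± 0.135 in unstimulated anti-LAIR-1, 2.79 ± 0.258 in anti-CD3 isotype and 2.97 ± 0.0262 in anti-CD3 anti-LAIR-1 (mean ± SD, n = 3). It did not overlap between unstimulated anti-LAIR-1, at 2.36 to 2.63, and anti-CD3 anti-LAIR-1, at 2.94 to 2.99. With isotype the ratio did overlap, at 2.52 to 3.04 in unstimulated cells and 2.51 to 3.03 with anti-CD3.

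Cd3e, whose product is bound by the stimulating antibody, had a smaller fall. Its level was 529, 652 and 589.9 CPM in unstimulated isotype (590.0 ± 61.5) and 541, 611 and 585 CPM in unstimulated anti-LAIR-1 (579 ± 35.2). With anti-CD3 it was 365, 378 and 369 CPM with isotype (371 ± 6.43) and 483, 504 and 525 CPM with anti-LAIR-1 (504 ± 20.9). The lowest unstimulated library, at 529 CPM, was only just above the highest library of anti-CD3 anti-LAIR-1, at 525 CPM. The change was -0.75 ± 0.09 with isotype (adjusted p = 1.73e-07) and -0.22 ± 0.07 with anti-LAIR-1 (adjusted p = 0.0108). The latter call did not hold in DESeq2 with the mouse as a replicate block (adjusted p = 0.0586), without a filter on low counts (adjusted p = 0.176), or without mouse 2 of unstimulated anti-LAIR-1 (adjusted p = 0.0549), mouse 1 of anti-CD3 anti-LAIR-1 (adjusted p = 0.0754) or mouse 2 of that group (adjusted p = 0.0546). Against Cd247, Cd3e counts within a library rose from a ratio of 3.14 ± 0.584 in unstimulated isotype to 8.66 ± 0.693 in anti-CD3 isotype, and from 3.09 ± 0.149 to 9.65 ± 0.763 with anti-LAIR-1, without overlap.

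The 2 chains of the co-receptor moved apart. Cd8a codes for the alpha chain, which binds Lck, and Cd8b1 for the beta chain, which pairs with alpha on T cells that see antigen on MHC class I. Cd8b1 was 619, 655 and 543 CPM in unstimulated isotype (606 ± 57.2) and 657, 671 and 589 CPM in unstimulated anti-LAIR-1 (639 ± 43.7). With anti-CD3 it was 180.1, 206 and 187 CPM with isotype (191 ± 13.6) and 220.1, 225 and 227 CPM with anti-LAIR-1 (224 ± 3.78). Every stimulated library lay below every unstimulated one, and the change was -1.74 ± 0.10 with isotype (adjusted p = 1.30e-13) and -1.53 ± 0.08 with anti-LAIR-1 (adjusted p = 1.06e-12), or 3.34-fold and 2.89-fold lower.

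Cd8a, its neighbour on chromosome 6, changed little. It was 404, 429 and 405 CPM in unstimulated isotype (413 ± 14.4), 415, 441 and 409 CPM in unstimulated anti-LAIR-1 (421 ± 17.3), 325, 343 and 385 CPM in anti-CD3 isotype (351 ± 30.9) and 366, 371 and 428 CPM in anti-CD3 anti-LAIR-1 (388 ± 34.5). The anti-CD3 anti-LAIR-1 libraries overlapped all 3 other groups. The change with anti-CD3 was -0.31 ± 0.09 with isotype (adjusted p = 0.00482), a call that was lost without the filter on low counts (-0.21, adjusted p = 0.0587) and without mouse 1 of anti-CD3 isotype (-0.23, adjusted p = 0.0650). With anti-LAIR-1 it was -0.14 ± 0.08 and did not pass (adjusted p = 0.125), but it did with upper quartile scaling (-0.34), with library totals (-0.25, adjusted p = 0.0105), with at least 10 counts required in every library (-0.18, adjusted p = 0.0478), after thinning (-0.25, adjusted p = 0.0395) and without mouse 3 of anti-CD3 anti-LAIR-1 (-0.19, adjusted p = 0.0301). The ratio of Cd8a to Cd8b1 counts within a library was 0.652, 0.655 and 0.746 in unstimulated isotype and 0.631, 0.657 and 0.693 in unstimulated anti-LAIR-1. It was 1.804, 1.66 and 2.06 in anti-CD3 isotype and 1.67, 1.64 and 1.88 in anti-CD3 anti-LAIR-1, above 1 in all stimulated libraries and below 1 in all others.

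**Figure D2:**
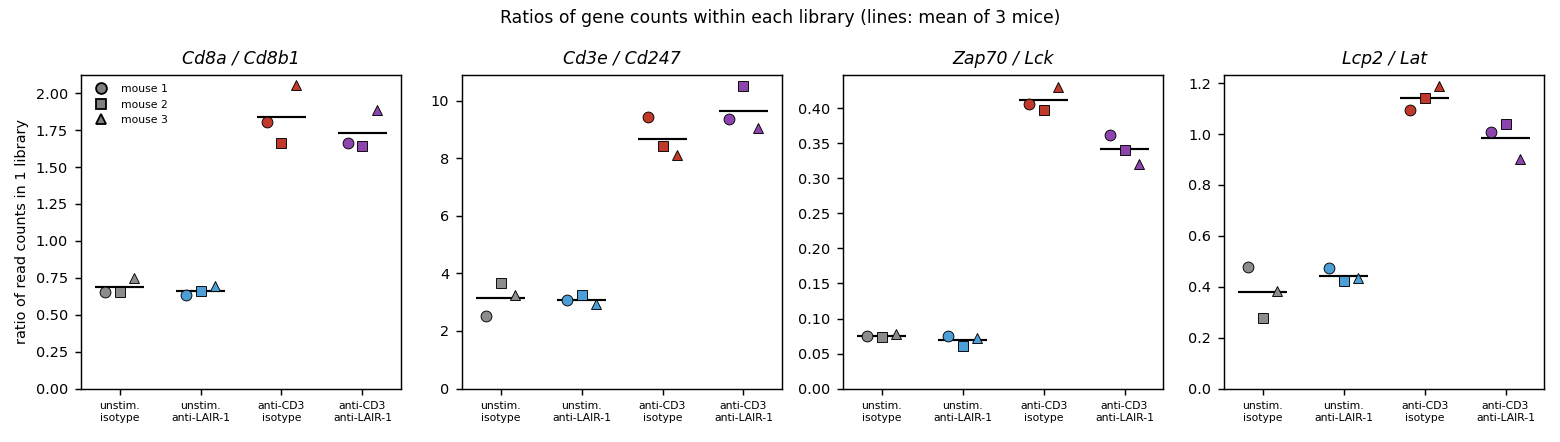
Ratio of the read counts of 2 genes within each library for 4 pairs, by condition, with mice as points and the mean of 3 mice as a line. Cd8a to Cd8b1 rises from 0.684 to 1.84 and Zap70 to Lck from 0.0756 to 0.411 (means) between unstimulated isotype and anti-CD3 isotype, and a ratio of 3′ counts does not rank the genes by abundance.

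The kinases moved in opposite directions. Lck, the Src family kinase that starts the signal, was 777, 837 and 819 CPM in unstimulated isotype (811 ± 31.0) and 782, 858 and 845 CPM in unstimulated anti-LAIR-1 (828 ± 40.3). It was 517, 568 and 574 CPM in anti-CD3 isotype (553 ± 31.2) and 612, 629 and 751 CPM in anti-CD3 anti-LAIR-1 (664 ± 75.7). All stimulated libraries were below the unstimulated ones, with mouse 3 of anti-CD3 anti-LAIR-1 the nearest to them. The change was -0.63 ± 0.08 with isotype (adjusted p = 6.08e-07) and -0.34 ± 0.08 with anti-LAIR-1 (adjusted p = 8.58e-04).

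Zap70, the Syk family kinase that acts after Lck, rose. It was 58.1, 61.8 and 64.1 CPM in unstimulated isotype (61.3 ± 3.07) and 58.2, 51.9 and 60.5 CPM in unstimulated anti-LAIR-1 (56.8 ± 4.48). Stimulated levels were 209.9, 226 and 247 CPM with isotype (228 ± 18.5) and 222, 215 and 241 CPM with anti-LAIR-1 (226 ± 13.4). The stimulated groups overlapped each other and lay above the unstimulated groups, which overlapped too. The increase was 1.82 ± 0.11 with isotype (adjusted p = 1.02e-12), or 3.54-fold, and 1.97 ± 0.09 with anti-LAIR-1 (adjusted p = 6.91e-13), or 3.92-fold. The ratio of Zap70 to Lck counts accordingly rose from 0.0756 ± 0.00235 to 0.411 ± 0.0165 with isotype and from 0.0688 ± 0.00736 to 0.341 ± 0.0209 with anti-LAIR-1.

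Both adaptors rose, Lcp2 by far the more. Lcp2 codes for SLP-76, the cytosolic scaffold that binds LAT through the Gads adaptor. It was 226, 152 and 205 CPM in unstimulated isotype (194 ± 38.0) and 212, 224 and 222 CPM in unstimulated anti-LAIR-1 (219 ± 6.46). With anti-CD3 it was 721, 777 and 722 CPM with isotype (739.9 ± 32.2) and 804, 787 and 694 CPM with anti-LAIR-1 (762 ± 59.3). Stimulated and unstimulated libraries were well apart, while isotype and anti-LAIR-1 overlapped in both states. The increase was 1.86 ± 0.11 (adjusted p = 3.86e-13), or 3.62-fold, with isotype and 1.78 ± 0.08 (adjusted p = 1.86e-13), or 3.43-fold, with anti-LAIR-1.

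Lat, the membrane adaptor phosphorylated by ZAP-70, was the gene with the smallest rise. It was 474, 545 and 531 CPM in unstimulated isotype (517 ± 37.5) and 449, 529 and 511 CPM in unstimulated anti-LAIR-1 (496 ± 42.2). It was 658, 680.3 and 608 CPM in anti-CD3 isotype (649 ± 37.4) and 797, 757 and 770.5 CPM in anti-CD3 anti-LAIR-1 (775 ± 20.5). The groups rose in steps without overlap from the unstimulated groups to anti-CD3 isotype to anti-CD3 anti-LAIR-1. The change with isotype was 0.25 ± 0.09 (adjusted p = 0.0152). It depended on scaling and on 1 library, and was 0.08 with upper quartile scaling (adjusted p = 0.453), 0.16 with library totals (adjusted p = 0.126), 0.20 with all libraries thinned to the smallest total (adjusted p = 0.112) and 0.18 without mouse 1 of unstimulated isotype (adjusted p = 0.0947). With anti-LAIR-1 the change was 0.63 ± 0.07 (adjusted p = 3.36e-07) and passed under all 16 alternatives tried, between 0.42 and 0.72.

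**Figure D3:**
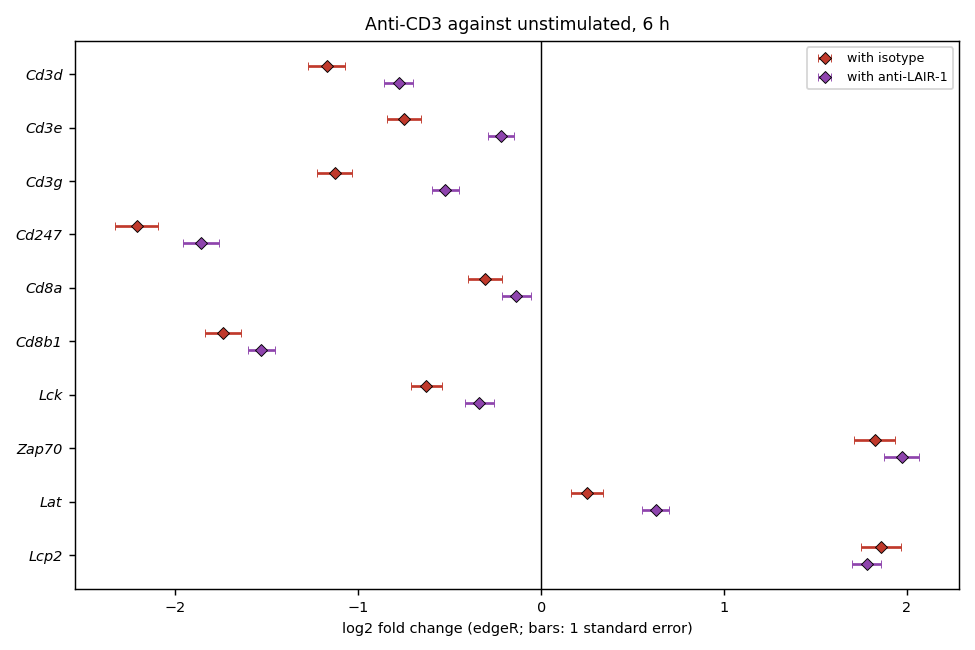
Log2 fold change of each gene between anti-CD3 and unstimulated cells, with isotype and with anti-LAIR-1, with 1 standard error as bars. Zap70 and Lcp2 lie near 1.8 to 2.0 and Cd247 and Cd8b1 below -1.5. Nearest to 0 are Cd8a and Lat with isotype, and Cd8a and Cd3e with anti-LAIR-1.

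The antibodies anti-LAIR-1 and isotype were compared next in stimulated cells, since this asks how LAIR-1 ligation changes the stimulated cell. Of the 10 genes, 4 were higher with anti-LAIR-1, namely Cd3d, Cd3e, Cd3g and Lat, where 3.90% of the 8800 genes tested were higher. None was lower, where 1.86% of all genes were, and 6 did not pass. The median difference was 0.26 over the 10 genes and 0.0047 over all genes tested. These comparisons share the libraries of the anti-CD3 groups with those above. The 3 clustered CD3 genes differed by 0.45 ± 0.08 for Cd3d (adjusted p = 0.00383), 0.45 ± 0.07 for Cd3e (adjusted p = 5.37e-04) and 0.54 ± 0.07 for Cd3g (adjusted p = 1.92e-04). In folds, the levels with anti-LAIR-1 were 1.36, 1.36 and 1.45 times those with isotype.

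The CD3 differences were present in each mouse. For Cd3d they were 0.20, 0.56 and 0.55 in mice 1, 2 and 3, for Cd3e 0.40, 0.42 and 0.51, and for Cd3g 0.43, 0.64 and 0.53, all on the log2 scale. Mouse 1 had the smallest difference for each. Cd3e and Cd3g passed under all 16 alternatives, with differences of 0.41 to 0.48 and 0.50 to 0.60. Cd3d passed under 15 and was lost when all libraries were thinned to the smallest total (adjusted p = 0.167). In these cells the 3 genes thus lay between the anti-CD3 isotype and the unstimulated level. A sum over the 10 genes mixes those that fell with anti-CD3 and those that rose, and so does not describe the CD3 genes. It was 4398 ± 199 CPM in unstimulated isotype and 4459 ± 173 CPM in unstimulated anti-LAIR-1. With anti-CD3 it was 3612 ± 95.4 CPM with isotype and 4288 ± 111 CPM with anti-LAIR-1.

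Lat was the fourth gene called, at 0.26 ± 0.07 (adjusted p = 0.0275), with 0.28, 0.15 and 0.34 in the mice. This call was less firm than those of the CD3 genes and was lost under 8 of 16 alternatives. The adjusted p was 0.0837 in DESeq2 with the replicate block, 0.0506 with all 12 libraries in the fit and 0.216 after thinning. Leaving out single libraries gave 0.0683 (mouse 1) and 0.131 (mouse 3) for anti-CD3 isotype, and 0.0890, 0.0731 and 0.0578 (mice 1, 2 and 3) for anti-CD3 anti-LAIR-1. Unlike for the CD3 genes, the higher Lat level with anti-LAIR-1 was farther from the unstimulated level than that with isotype.

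The remaining 6 genes did not pass. Lck differed by 0.27 ± 0.08 (adjusted p = 0.0630) and was higher in 3 of 3 mice, by 0.24, 0.15 and 0.39. It passed with the mouse as a replicate block in edgeR (adjusted p = 0.0308), without a filter on low counts (adjusted p = 0.00893) and without mouse 1 of anti-CD3 anti-LAIR-1 (0.32, adjusted p = 0.0396). Cd247 differed by 0.28 ± 0.11 (adjusted p = 0.191), Cd8b1 by 0.23 ± 0.08 (adjusted p = 0.0848) and Cd8a by 0.15 ± 0.08 (adjusted p = 0.348), each higher in 3 of 3 mice. The genes with the largest rises with anti-CD3 differed least, Zap70 by -0.01 ± 0.08 (adjusted p = 0.956) and Lcp2 by 0.05 ± 0.07 (adjusted p = 0.791), with mice on both sides of 0. For Zap70 the sign turned with library totals (0.0019), after thinning (0.06) and without any of 3 single libraries, and for Lcp2 after thinning (-0.07).

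Without anti-CD3, no difference between anti-LAIR-1 and isotype passed for the 10 genes. No gene of the 8770 tested (0%) passed in edgeR or in DESeq2, and 384 had an unadjusted p under 0.05, none of them among the 10. Differences ran from -0.13 ± 0.13 (Zap70) to 0.16 ± 0.11 (Lcp2), with an adjusted p of 0.997 for each of the 10 genes. A p above the threshold does not show that the levels were alike. The Lcp2 value rests on mouse 2, in which the difference was 0.56, against -0.09 and 0.12 in mice 1 and 3. In the CD3 genes, Cd3d differed by 0.08, Cd3e by -0.05 and Cd3g by -0.03.

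Whether the effect of anti-LAIR-1 differed with and without anti-CD3 was tested as an interaction over the 12 libraries. It passed for Cd3g, at 0.58 ± 0.12 (adjusted p = 0.00933), and for Cd3e, at 0.50 ± 0.12 (adjusted p = 0.0227), so 2 of 10 genes were higher, where 1.82% of the 9223 genes tested were, and none was lower, where 0.249% were. The difference was above 0 in 3 of 3 mice for both genes, at 0.52, 0.79 and 0.30 for Cd3g and 0.37, 0.51 and 0.52 for Cd3e. The Cd3g call was lost with thinning to the smallest total (adjusted p = 0.0907) and held under the other 20 alternatives. Cd3e lost its call with thinning (adjusted p = 0.259) and without any of 7 single libraries. These were mouse 2 of unstimulated isotype (adjusted p = 0.0838), mice 1 (0.0816) and 3 (0.0510) of unstimulated anti-LAIR-1, mice 1 (0.0653) and 3 (0.0510) of anti-CD3 isotype, and mice 2 (0.0517) and 3 (0.0747) of anti-CD3 anti-LAIR-1.

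For the other 8 genes the interaction did not pass, so that a difference between the states was not shown. It was 0.37 for Cd3d (adjusted p = 0.153), 0.35 for Lat (adjusted p = 0.149), 0.32 for Cd247 (adjusted p = 0.367) and 0.26 for Lck (adjusted p = 0.355). Cd8b1, Cd8a and Zap70 had 0.18, 0.14 and 0.12, and Lcp2, at -0.11, was the single gene below 0. The CD3 genes and Lat had the largest estimates and the genes with the strongest rises the smallest.

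**Figure D4:**
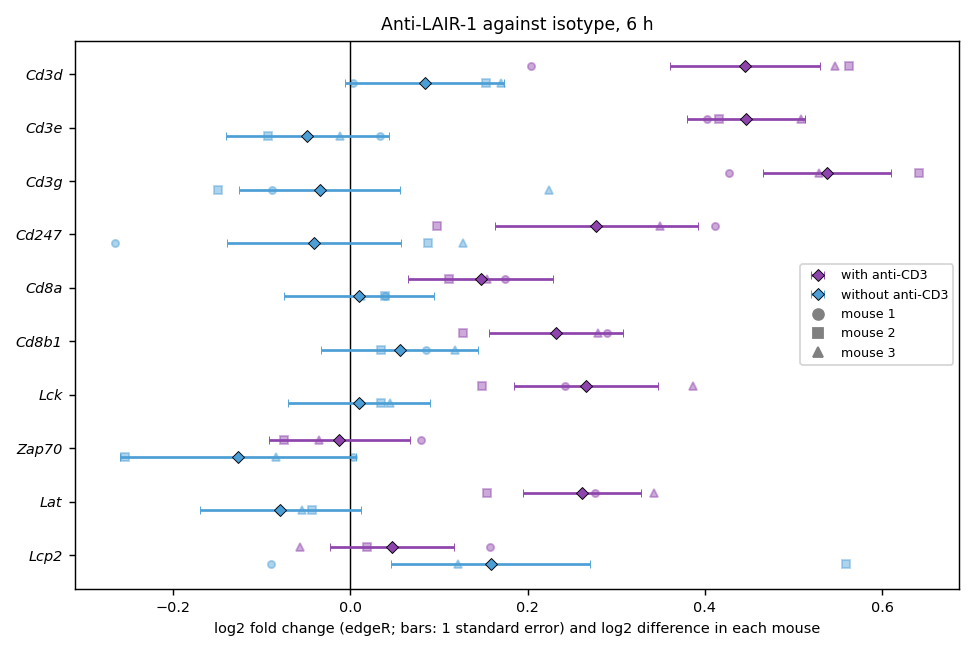
Log2 difference between anti-LAIR-1 and isotype for each gene, with anti-CD3 and without, with the estimate and 1 standard error as diamond and bar and the 3 mice as paler points, some of which lie behind a diamond or another point. With anti-CD3 the 3 CD3 genes lie at 0.45 to 0.54 and Zap70 and Lcp2 near 0, and without it the estimates lie between -0.13 and 0.16.

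Genes that act beside this core were taken as 2 further lists. The list of 19 proximal partners, all in the count table, holds kinases, adaptors and regulators that act beside the 10 genes, and 17 were tested. With anti-CD3 and isotype, 2 rose and 10 fell (median -0.97), where 35.3% of all genes tested rose and 36.1% fell. With anti-LAIR-1, 3 rose and 10 fell (median -0.65), where 36.4% and 36.3% of all genes did. In both, Fyb, which codes for the adaptor ADAP bound by SLP-76, had the largest fall of the list, with log2 changes of -3.60 (isotype) and -2.95 (anti-LAIR-1), while Lcp2 itself rose. Rasgrp1, the activator of Ras recruited downstream of LAT, changed by -2.13 and -1.996, the Tec family kinase Txk by -2.60 and -2.26, and Skap1, the partner of ADAP, by -2.23 and -1.36. Fyn, the other Src family kinase of the receptor, rose by 1.37 in both, unlike Lck, and the adaptor gene Sh2d2a rose by 1.60 and 1.64. Vav1, an exchange factor, was the third to rise with anti-LAIR-1, by 0.32.

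With anti-LAIR-1 and anti-CD3, 3 partners of the 17 tested were higher, against the 3.90% of all genes. Cd2, the adhesion receptor that sustains contact and signal, was 155, 179 and 189 CPM with isotype and 251, 259 and 267 CPM with anti-LAIR-1, a difference of 0.57 ± 0.08 (adjusted p = 3.31e-04). Skap1 was 23.0, 24.7 and 23.2 CPM with isotype and 32.0, 40.3 and 37.0 CPM with anti-LAIR-1 (0.62 ± 0.14, adjusted p = 0.00971), and Fyb differed by 0.63 ± 0.17 (adjusted p = 0.0367). Like the CD3 genes, these 3 had fallen with anti-CD3 and were nearer to the unstimulated level with anti-LAIR-1. The interaction passed for Skap1 (0.84, adjusted p = 0.00359) and Cd2 (0.57, adjusted p = 0.0120) and did not pass for Fyb (0.63, adjusted p = 0.157).

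The list of 16 genes of proximal restraint holds phosphatases, ubiquitin ligases and inhibitory adaptors of the same pathway. With anti-CD3 and isotype, 5 rose and 7 fell of 15 tested (median -0.59), and with anti-LAIR-1 6 rose and 6 fell of 16 (median -0.12). These counts were near the shares of all genes, 35.3% higher and 36.1% lower with isotype and 36.4% and 36.3% with anti-LAIR-1. Ubash3b, the phosphatase Sts-1, rose by 2.38 and 2.16, Cd5, a receptor that dampens the signal, by 1.17 and 1.15, Sla by 1.08 and 1.25 and the ubiquitin ligase gene Cblb by 0.75 in both. Sla2, the paralogue of Sla, changed by -3.57 and -2.27. With anti-CD3, anti-LAIR-1 went with higher Lax1, an inhibitory membrane adaptor (0.75 ± 0.13, adjusted p = 0.00148), and higher Csk, the kinase that holds Lck inactive (0.39 ± 0.08, adjusted p = 0.00809), so that 2 of 15 were higher, where 3.90% of all genes were. None of the 15 was lower, near the 1.86% of all genes. Csk was 187, 166 and 196 CPM with isotype and 255, 221 and 241 CPM with anti-LAIR-1, and its interaction passed at 0.52 (adjusted p = 0.0350). With isotype, anti-CD3 had changed Csk by -0.59 (adjusted p = 2.16e-05) and Lax1 by -0.82 (adjusted p = 1.69e-04). With anti-LAIR-1 these changes were -0.03 and -0.14 and did not pass. For Lax1 the interaction was 0.65 and did not pass (adjusted p = 0.105), so that a different response to anti-CD3 was not shown. Mean levels were 261 CPM (Csk) and 41.4 CPM (Lax1) in unstimulated isotype. They were 239 and 41.0 CPM in anti-CD3 anti-LAIR-1, so both genes were nearer to the unstimulated level there. Without anti-CD3, no gene of either list passed. The constant chains of the receptor (Trac, Trbc1 and Trbc2) were not found by symbol in the count table and so could not be analysed.

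Among the 9223 genes of the 12-library fit, the gene whose profile came nearest to each of the 10 was found by the root mean square of the differences in log2 CPM, each profile centred on its mean. Cd3e had Lck as its nearest gene (0.0946 log2 units), the only case of a nearest gene inside the group. Cd3g had Cd2 (0.110), the partner described above, and Cd3d had the ferritin gene Fth1 (0.102). Cd8b1 had Dock11 (0.0678), Cd247 had Inpp5k (0.0731), Lck had Mboat7 (0.0667) and Cd8a had Wac (0.0657). The genes that rose had Ndufa12, a subunit gene of respiratory complex I (Zap70, 0.0873), Adsl, an enzyme gene of purine synthesis (Lcp2, 0.0717), and Hnrnph1, which codes for an RNA-binding protein (Lat, 0.102). These distances describe likeness over 4 conditions, and for genes that moved strongly they are dominated by the step between unstimulated and stimulated libraries. Each gene's own centred profile had a root mean square of 0.130 for Cd8a, 0.252 for Lck, 0.800 for Cd8b1 and 1.00 for Cd247. A small distance thus says less for a gene that hardly moved, such as Cd8a.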

How the data were processed

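RNA was measured in 12 libraries, 1 for each of 3 mice in each of 4 conditions. The deposited values are raw counts of reads, 1 row per symbol, which the authors obtained by CEL-seq, a 3′ end method, on a NextSeq 500, with alignment of the second read to the mm10 transcriptome by BWA MEM. Reads mapping equally well to more than 1 place had been removed, and the counts came from the MapAndGo script. Whether molecular identifiers were collapsed is not given in the sources used here, so that limits from counts cover counting error only. Of the columns of per-sample values, 0 were left unused.

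Counts were tested with edgeR 4.0.16 in R 4.3.3 (quasi-likelihood test, TMM, filterByExpr in the groups of each fit, Benjamini-Hochberg over all genes tested, threshold 0.05) and, as an alternative, with DESeq2 1.42.0. Genes that are not protein coding stayed in. Each comparison was fitted on its 2 groups of 3 libraries and the interaction on all 12. An exact permutation test of 3 against 3 cannot go below 0.1 and was not used. The code was tested on simulated counts. Replicates of a group differed by more than sampling noise (chi-square per degree of freedom 3.82 to 5.62). Same-numbered libraries come from the same mouse according to the labels. Their deviations from group means had a mean correlation of 0.0431 over 18 pairs, and the mean over 36 pairs of different mice was -0.0216. Because each group was centred on its own mean, the second value follows largely from the first. It is thus no separate comparison. The replicate block was an alternative fit, as were other scalings and filters, all 12 libraries in the fit, thinning to 1781218 counts and leaving out each library.

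The 10 genes and the lists were chosen with earlier results of these data known. All 10 are described in each comparison. Of the other lists, up to 4 genes per direction with the lowest adjusted p are named, and some results of these lists are not reported here. Gene positions are from GENCODE M21, promoter windows from RefSeq.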

Additional observations from a re-analysis of the deposited data

Results flagged for a closer look

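For Cd3g and Cd3e the difference between anti-LAIR-1 and isotype was larger with anti-CD3 than without, at 0.58 for Cd3g and 0.50 for Cd3e on the log2 scale by the interaction in edgeR, and above 0 in 3 of 3 mice for each. For Lat, anti-LAIR-1 gave higher values than isotype in 3 of 3 mice with anti-CD3 (0.28, 0.15 and 0.34) and lower values in 3 of 3 mice without it (-0.08, -0.04 and -0.05). The estimate of this difference was 0.35 and did not pass the test (adjusted p = 0.149 in edgeR).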

How the results depend on the processing

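With thinning of all libraries to the smallest total, 2 of the 10 genes were called for anti-LAIR-1 with anti-CD3 in place of 4, and 0 in place of 2 for the interaction. Leaving out single libraries gave 1 to 2 genes for the interaction. Over all genes, calls for anti-LAIR-1 with anti-CD3 were 507, against 239 in DESeq2 with the replicate block, 80 after thinning and 293 to 427 without single libraries. Interaction calls were 191, against 50 after thinning and 103 to 186 without single libraries. Without anti-CD3 there were 0 calls, but 5 without a filter on low counts and 1 without mouse 2 of unstimulated anti-LAIR-1. Upper quartile scaling moved the median of all genes with anti-CD3 from -0.03 to -0.20 with isotype and from -0.04 to -0.24 with anti-LAIR-1, and library totals moved it to -0.12 and -0.15. The share of higher calls with anti-CD3 and isotype was 49.4%, and 42.2% with upper quartile scaling. With all 12 libraries in the fit, 79.8% of calls for anti-LAIR-1 with anti-CD3 were higher, against 67.7%.

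Signs turned only in differences that did not pass. With anti-CD3, the Zap70 difference with anti-LAIR-1 was 0.0019 with library totals, 0.0611 after thinning and -0.0688 to 0.0450 without single libraries, and that of Lcp2 was -0.0695 after thinning. Without anti-CD3, Lck was -0.0163 after thinning. Leaving out single libraries gave -0.0329 to 0.0488 for Lck, -0.0863 to 0.0278 for Cd247, -0.0266 to 0.0480 for Cd8a, -0.135 to 0.0391 for Cd3e, -0.121 to 0.0701 for Cd3g and -0.0106 to 0.125 for Cd8b1. The Lcp2 interaction was -0.225 to 0.0319. The paired fits with the mouse as replicate block changed 3 calls, which are Lck with anti-LAIR-1 and anti-CD3 in edgeR (adjusted p = 0.0308), and in DESeq2 Lat in that comparison (adjusted p = 0.0837) and Cd3e with anti-CD3 and anti-LAIR-1 (adjusted p = 0.0586). They changed no other call of the 10 genes. Of 160 values each, 154 kept their direction and side of the threshold for anti-CD3 with isotype, 150 for anti-CD3 with anti-LAIR-1, 142 for anti-LAIR-1 with anti-CD3 and 149 without, and 200 of 210 did for the interaction. The cause of these changes was not tested beyond the smaller depth or number of libraries that thinning and leaving out bring.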
